A study of Mus musculus with 10 samples.

Results

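The 37 genes described here encode the enzymes and regulators that build cholesterol and fatty acids, together with the genes that sense, export and break down cholesterol. They were taken as a list of mouse symbols, matched to the Ensembl identifiers of a deposited table of 56691 genes, and kept where the mean level over 10 libraries was at least 0.5 FPKM (fragments per kilobase of gene, scaled to the library's total). All 37 were in the table and all 37 passed, so no member was lost; the lowest mean among them was 2.03 FPKM. The RNA came from wild-type mice, from a small nucleus above the thalamus that is rich in nicotinic acetylcholine receptors, the medial habenula. In the withdrawal group (6 libraries) mice had been injected intraperitoneally with nicotine ditartrate at 4 mg/kg, 2 times a day for 14 days, and nicotine was replaced by saline from day 15. The control group (4 libraries) received saline injections throughout, and tissue was collected on day 17 in both groups. Strain, sex, age, litter and processing batch are not given in the sources used here. The comparison asks which of these transcripts differ between mice taken off repeated nicotine and mice that received only saline. No group was kept on nicotine, so the stop and the earlier exposure cannot be told apart.

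Cholesterol does not cross the blood-brain barrier to any large extent, so the brain makes its own, mainly in oligodendrocytes and astrocytes, and myelin holds most of it. Synthesis starts from acetyl-CoA, runs through mevalonate and squalene to lanosterol, and ends in cholesterol after a series of demethylation, reduction and isomerisation steps. When sterols are low in the endoplasmic reticulum, Scap escorts the SREBP transcription factors (made from Srebf1 and Srebf2) to the Golgi for cleavage; Insig proteins hold them back when sterols are high. Sterol excess in turn activates the liver X receptors (Nr1h2 and Nr1h3), which switch on efflux pumps and Srebf1.

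Library totals ran from 15023448 to 22026333 counts, and the genes tested held 99.59% to 99.72% of them. Control 2 and withdrawal 2 stood apart from the rest. The summed level of 8 medial habenula markers was 14.6 CPM (counts scaled to library size, with TMM factors) in control 2 and 12.7 CPM in withdrawal 2, while each of the other 8 libraries had 559 to 869 CPM. Of Chat, the acetylcholine-synthesising enzyme, control 2 had 0.16 CPM and withdrawal 2 had 0.20 CPM. The summed level of 4 hippocampal and cortical neuron markers was 2419 CPM in control 2 and 472 CPM in withdrawal 2. The source label names cholinergic neurons isolated by cell sorting, while the series record describes tissue; Mbp, the myelin basic protein of oligodendrocytes, was at 2407 to 6077 CPM in all 10 libraries. The tests were therefore run in all 10 libraries and in the 8 without control 2 and withdrawal 2 (3 controls and 5 withdrawal libraries). For many genes below only the 8-library values are given. In bulk tissue, fewer cells of a type and less RNA per cell cannot be told apart. The series record counts as many mice as there are libraries in each group.

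**Figure D1:**
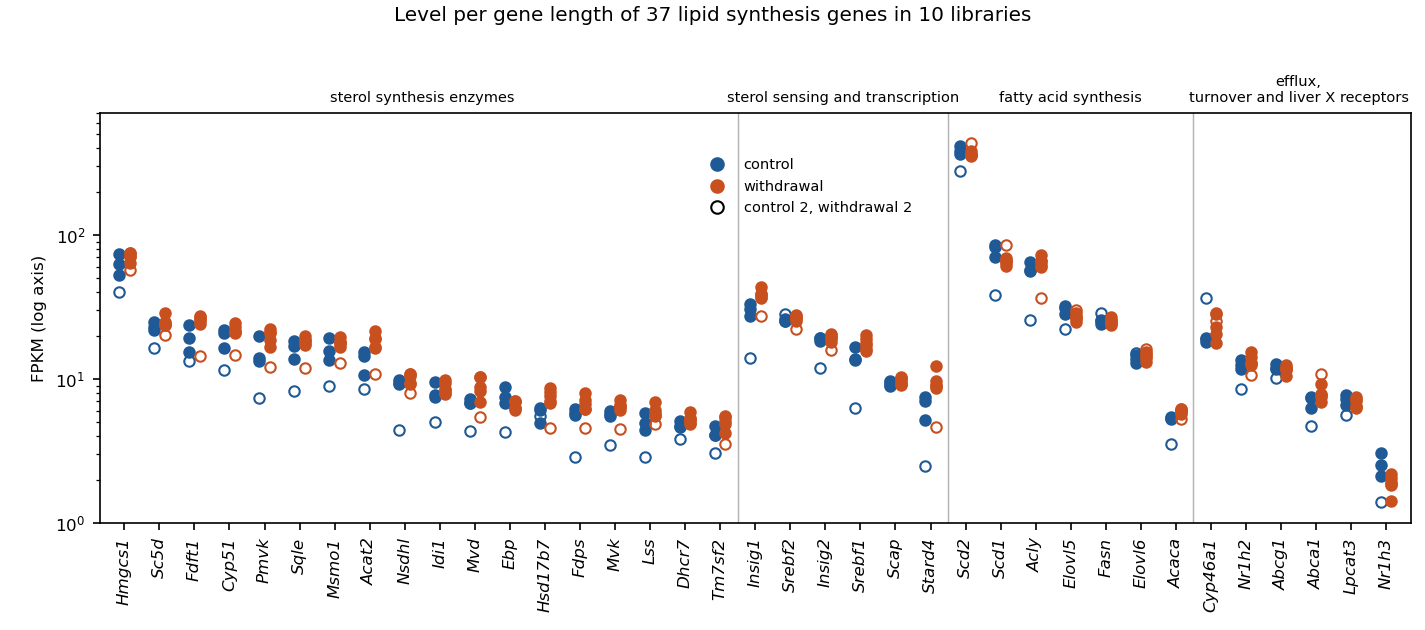
Level of each of the 37 genes in every library, as FPKM on a log axis, grouped by role and ordered by mean level. Filled points are the 8 libraries with medial habenula transcripts and open points are control 2 (blue) and withdrawal 2 (orange). Scd2 lies far above the rest and Nr1h3 at the bottom.

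Per unit of gene length, the desaturase Scd2 was the most abundant of the 37, with a mean of 370.5 FPKM over 10 libraries and a range of 278 to 434 FPKM. Its paralog Scd1 followed at 69.1 FPKM. Hmgcs1, which condenses acetoacetyl-CoA and acetyl-CoA into HMG-CoA, was the most abundant sterol enzyme at 64.2 FPKM, and Acly, which makes cytosolic acetyl-CoA from citrate, was at 56.6 FPKM. Sterol enzymes further along the pathway were lower: Sc5d at 23.2, Fdft1 at 21.6, Cyp51 at 19.6 and Sqle at 16.2 FPKM, down to Dhcr7 at 4.98 and Tm7sf2 at 4.46 FPKM. The first 4 of these overlapped in their ranges over the libraries, as did the last pair. Srebf2 (26.1 FPKM) stood above Srebf1 (15.7 FPKM), with no overlap over the libraries, 22.1 to 28.5 against 6.26 to 20.2 FPKM. Insig1 (32.8 FPKM) stood above Insig2 (18.2 FPKM) by the mean, but their ranges met: Insig1 went down to 13.9 FPKM and Insig2 up to 20.4 FPKM. Of the liver X receptors, Nr1h2 had 12.5 FPKM and Nr1h3 2.03 FPKM, the lowest of the 37, and Nr1h3 had 69 to 133 counts per library.

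In the 8 libraries, 5 sterol-related genes were higher in withdrawal and the desaturase Scd1 was lower. The 5 were Stard4, a carrier that moves sterols between membranes, Insig1, whose protein holds SREBP back when sterols are high, and the enzymes Acat2, Fdft1 and Hsd17b7. Their log2 fold changes lay between 0.36 and 0.56, and Scd1 fell by 0.29 on the log2 scale. Over all 10 libraries none of the 37 passed. These calls used the quasi-likelihood test of edgeR on counts, with Benjamini-Hochberg adjustment over 17426 genes and a threshold of 0.05.

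Read against all genes, 6 of 37 members (16.2%) were called in the 8 libraries, where 12.1% of all genes tested were called. By direction, 5 members (13.5%) were higher against 5.38% of all genes, and 1 member (2.70%) was lower against 6.77%. In 10 libraries edgeR called 0 of 37, where 0.166% of all genes were called (0.0287% higher and 0.138% lower); DESeq2 and limma also called 0 of 37. At an unadjusted edgeR p under 0.05, 5 members (13.5%) were higher in the 10 libraries, against 6.32% of all genes, and 0 were lower, against 8.57%. The median log2 fold change of the members was 0.20 in 10 libraries and 0.13 in 8, against 0.017 and 0.011 over all genes tested. Leaving only control 2 out of the 10 libraries took the members' median to 0.076. At an unadjusted edgeR p under 0.05, 2 members were then higher and 2 lower, against 999 and 921 of all 17426 genes tested. Leaving only withdrawal 2 out gave a median of 0.22, with 11 members higher and 1 lower, against 1910 and 2364 of all genes. In the 8 libraries 7 of 37 members (18.9%) had a log2 fold change below 0, against 48.1% of all genes, and in the 10 libraries 11 of 37 (29.7%), against 47.3%. The calls rested on few libraries. The number of members called was 4, 1 and 2 without control 1, 3 and 4, and 3, 2, 4, 1 and 7 without withdrawal 1, 3, 4, 5 and 6. Among all 17426 genes tested, the same fits called 1632, 907 and 1439, and 1324, 1355, 1585, 1151 and 3007, so the total moved as well. The members called were not always among the 6. Without control 4 none of the 6 was called, and the 2 called were Pmvk and Elovl5. Without control 3 the only call was Scd1, and without withdrawal 5 it was Insig1. The 7 without withdrawal 6 were the 6 and Cyp46a1. Pmvk and Cyp46a1 are outside the naming rule and were chosen after their values were seen. Among these 8 fits, the enzymes Fdft1 and Acat2 were called only without control 1 and without withdrawal 6, and Hsd17b7 only without withdrawal 4 and without withdrawal 6.

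**Figure D2:**
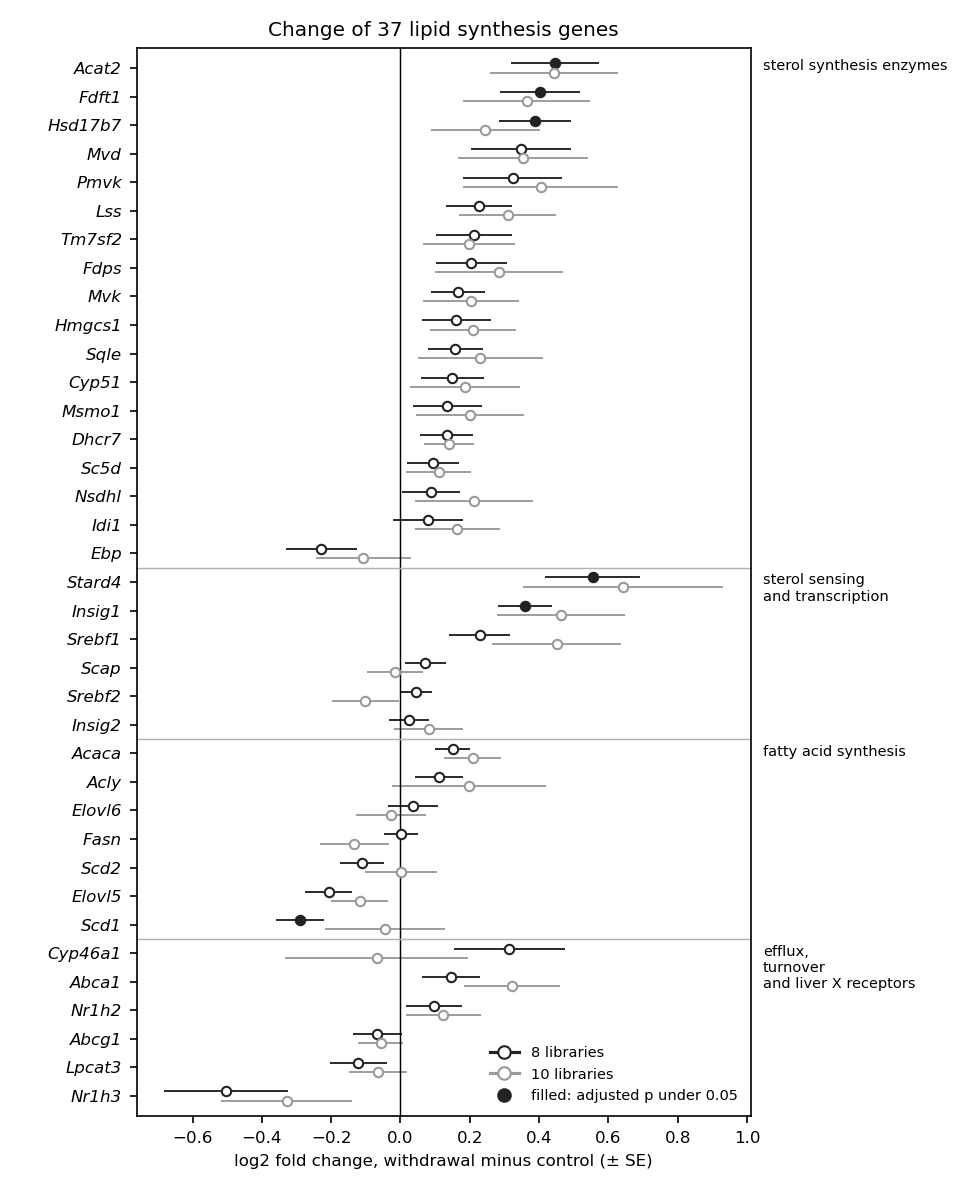
Log2 fold change (withdrawal minus control, ± SE from edgeR) of the 37 genes in 8 libraries (black) and 10 libraries (grey), grouped by role; filled points passed an adjusted p of 0.05. Of the 18 sterol synthesis enzymes, 17 lie to the right of 0 in both fits, while the fatty acid genes lie on both sides. Among all genes tested, 48.1% had a fold change below 0 in 8 libraries and 47.3% in 10.

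The start regions of the members were searched for motifs, whether or not a gene was called. RefSeq promoter entries (build GRCm38.p6) were found for 30 of the 37 genes; Fdft1, Stard4, Scd1, Scd2, Sqle, Fdps and Abcg1 had none. In each entry, 250 bases before to 50 after a start site, 3 motifs were searched on both strands: TCACNCCAC, a consensus of the sterol regulatory element bound by SREBP, CCAAT, the box bound by NF-Y, and CACGTG, an E-box. CCAAT was found in 23 of the 30 genes, against 41.1% of all 27025 genes with an entry, and in 14 of the 15 sterol synthesis enzymes with an entry. TCACNCCAC was found in 1 of the 30, Hmgcs1, against 1.44% of all genes, and CACGTG in 7 of the 30, against 8.09%. The 250 bases upstream of the start sites of Insig1, Hsd17b7 and Acat2, which were called, and of Hmgcs1, which holds the consensus, are shown in the direction of the gene, with every match to a motif in capitals (CCAAT appears as ATTGG where it lies on the other strand).
Insig1, chr5:28071162-28071411, plus strand: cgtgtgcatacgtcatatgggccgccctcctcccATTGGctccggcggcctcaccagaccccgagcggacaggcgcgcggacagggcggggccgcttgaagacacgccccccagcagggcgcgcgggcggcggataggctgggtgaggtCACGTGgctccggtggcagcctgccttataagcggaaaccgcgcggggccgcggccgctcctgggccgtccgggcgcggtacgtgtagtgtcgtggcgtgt
Hsd17b7, chr1:169969206-169969455, minus strand: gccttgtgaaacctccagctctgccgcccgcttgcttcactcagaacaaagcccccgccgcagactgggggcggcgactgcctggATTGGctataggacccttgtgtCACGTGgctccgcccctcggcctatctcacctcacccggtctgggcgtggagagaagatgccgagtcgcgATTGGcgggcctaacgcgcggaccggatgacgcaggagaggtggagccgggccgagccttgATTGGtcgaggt
Acat2, chr17:12960726-12960975, minus strand: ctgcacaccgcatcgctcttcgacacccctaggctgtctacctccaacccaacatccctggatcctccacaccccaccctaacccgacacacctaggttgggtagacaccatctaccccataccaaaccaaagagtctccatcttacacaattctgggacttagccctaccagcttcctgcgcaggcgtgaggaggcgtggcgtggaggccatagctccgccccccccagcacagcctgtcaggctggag
Hmgcs1, chr13:119690101-119690350, plus strand: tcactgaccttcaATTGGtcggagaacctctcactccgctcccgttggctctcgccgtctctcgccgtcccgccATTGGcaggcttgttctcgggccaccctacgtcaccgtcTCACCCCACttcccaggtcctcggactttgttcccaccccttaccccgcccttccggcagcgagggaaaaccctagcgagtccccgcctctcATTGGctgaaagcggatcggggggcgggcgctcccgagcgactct
Hsd17b7 holds 3 CCAAT boxes and 1 E-box in this window, Insig1 holds 1 of each, and Acat2 holds none of the 3 motifs. In Hmgcs1 the consensus starts at position -137 from the start site, beside 3 CCAAT boxes. The longest run shared by the Insig1 and Hsd17b7 windows, gtcacgtggctccg, holds the E-box and occurs in 5 of 32851 promoter entries; it was looked for after the sequences were seen. The matches describe letters only.

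The sterol synthesis enzymes were higher in withdrawal in the mean. In the 8 libraries 3 of the 18 (16.7%) rose, where 5.38% of all genes tested were called higher. The summed level of the 18 was 1200, 940 and 1063 CPM in controls 1, 3 and 4. It was 1255, 1299, 1194, 1232 and 1105 CPM in withdrawal 1, 3, 4, 5 and 6. The groups overlapped, because control 1 was above withdrawal 4 and 6. In control 2 the sum was 789 CPM and in withdrawal 2 915 CPM, below the other 8 libraries. The fold change was above 0 for 17 of 18 in both fits, with a median of 0.21 in 10 libraries and 0.16 in 8, and Ebp was the exception. It was below 0 for 47.3% of all genes tested in 10 libraries and 48.1% in 8.

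Acat2 (ENSMUSG00000023832), the cytosolic thiolase that joins acetyl-CoA units at the start of the pathway, was at 38.4, 27.2 and 36.3 CPM in controls 1, 3 and 4. In withdrawal 1, 3, 4, 5 and 6 it was at 48.6, 53.0, 40.9, 47.8 and 41.0 CPM, every one above every control. It rose from 34.0 ± 5.95 CPM (SD, n = 3) to 46.3 ± 5.24 CPM (SD, n = 5), a log2 fold change of 0.45 (SE 0.127, edgeR adjusted p = 0.0473). Control 2, at 25.3 CPM, and withdrawal 2, at 28.0 CPM, lay at the bottom of their groups, and in 10 libraries the log2 fold change was 0.44 (edgeR adjusted p = 0.313).

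Fdft1 (ENSMUSG00000021273), which makes squalene and commits the pathway to sterols, was at 96.8, 63.9 and 77.5 CPM in controls 1, 3 and 4 and at 112, 107, 102, 107 and 95.5 CPM in the 5 withdrawal libraries. Only control 1 overlapped with withdrawal, lying just above withdrawal 6. The gene rose from 79.4 ± 16.5 CPM (SD, n = 3) to 105 ± 6.28 CPM (SD, n = 5), a log2 fold change of 0.40 (SE 0.116, edgeR adjusted p = 0.0496). In limma on log2(FPKM + 1) the adjusted p was 0.0513 for Fdft1 and 0.0544 for Acat2. Over all 10 libraries the log2 fold change of Fdft1 was 0.36 (edgeR adjusted p = 0.370).

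Hsd17b7 (ENSMUSG00000026675), a reductase of the sterol 3-keto group, was at 31.5, 25.3 and 30.7 CPM in controls 1, 3 and 4. It was at 38.5, 43.0, 34.1, 40.9 and 34.5 CPM in withdrawal 1, 3, 4, 5 and 6, with no overlap. The means were 29.2 ± 3.37 CPM (SD, n = 3) and 38.2 ± 3.87 CPM (SD, n = 5), a log2 fold change of 0.39 (SE 0.104, edgeR adjusted p = 0.0393). In control 2 it was at 33.2 CPM, the highest of the controls and unlike the other 2 enzymes, and in withdrawal 2 at 23.5 CPM, the lowest of the 10. Over all 10 libraries the log2 fold change of Hsd17b7 was 0.24 (edgeR adjusted p = 0.467).

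The remaining 15 enzymes did not pass in either fit. Hmgcs1 was at 332, 218, 243 and 282 CPM in controls 1 to 4, and withdrawal libraries had a lowest value of 267, a median of 321 and a highest value of 342 CPM. The groups overlapped over most of their range, with log2 fold changes of 0.21 in 10 libraries and 0.16 in 8 (edgeR adjusted p = 0.428 and 0.314). Sqle, the first oxygen-requiring step, was at 101, 53.5, 77.1 and 91.8 CPM in controls and at 66.8 to 107 CPM (median 98.7) in withdrawal, with log2 fold changes of 0.23 and 0.16 (edgeR adjusted p = 0.549 and 0.224). Lss, which closes squalene epoxide into lanosterol, was at 61.6, 36.4, 48.1 and 52.7 CPM in controls and at 52.7 to 72.1 CPM (median 61.3) in withdrawal. Its log2 fold changes were 0.31 and 0.23 (edgeR adjusted p = 0.335 and 0.153). Dhcr7, the last reductase, varied little, with 29.3, 26.0, 27.7 and 26.3 CPM in controls and 27.7 to 32.9 CPM (median 30.3) in withdrawal, and log2 fold changes of 0.14 and 0.13 (edgeR adjusted p = 0.373 and 0.286). Mvk, the mevalonate kinase, did not overlap between the groups of the 8 libraries (14.6 to 15.6 CPM against 16.2 to 18.2 CPM), yet its edgeR adjusted p was 0.190. Such separation upward was seen in 6 of 37 members (16.2%), where 10.8% of all genes tested showed it, and separation downward in 1 member (2.70%), where 11.1% did. Over all 10 libraries 0 members were separated in either direction, where 1.7% of all genes were separated upward and 1.57% downward. Pmvk and Mvd, the next steps after Mvk, had log2 fold changes of 0.32 and 0.35, the largest of those not called (edgeR adjusted p = 0.167 and 0.142). Idi1 and Fdps, which isomerise and join the isoprene units, had 0.08 and 0.20, and the later enzymes Cyp51, Tm7sf2, Msmo1, Nsdhl and Sc5d lay between 0.09 and 0.21. In Ebp, a sterol isomerase, controls 1, 3 and 4 were at 20.1, 17.5 and 15.5 CPM and withdrawal at 13.9 to 16.2 CPM, a log2 fold change of -0.23 (edgeR adjusted p = 0.173).

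**Figure D3:**
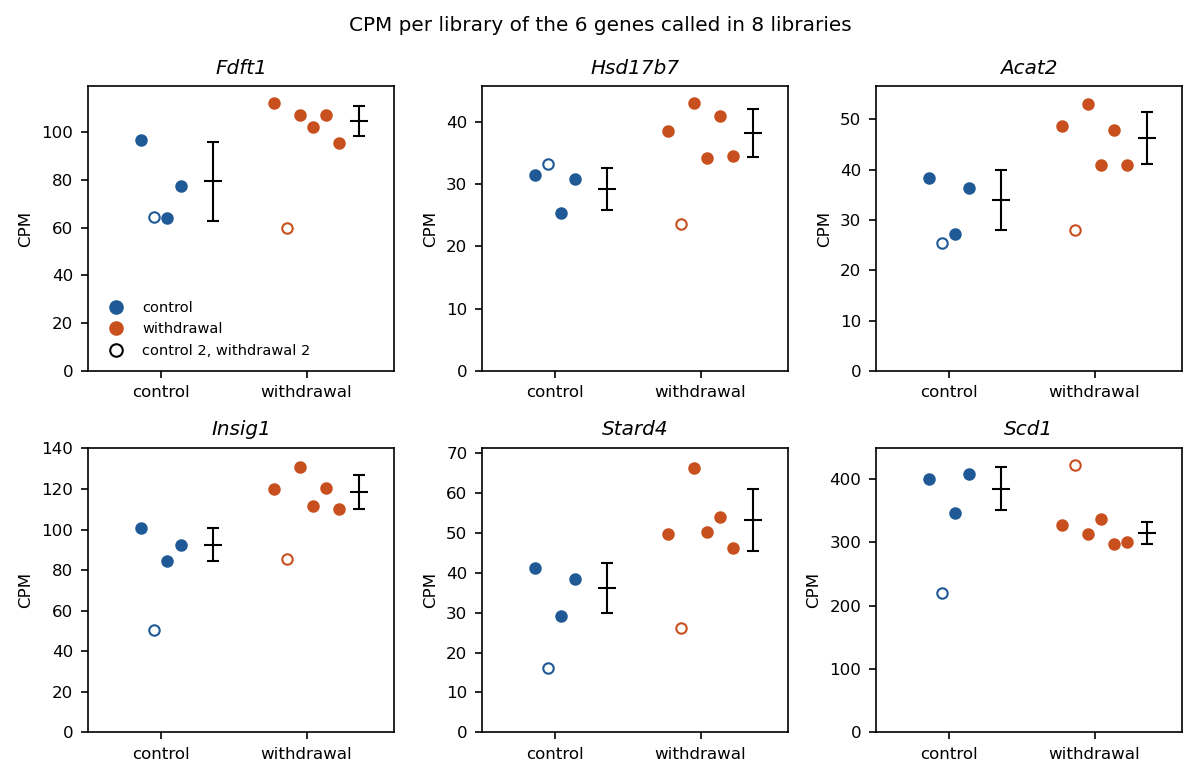
CPM in each library of the 6 genes called in the 8 libraries; bars to the right of each group give its mean and SD without control 2 and withdrawal 2 (open points). Apart from control 1 in Fdft1, the filled groups do not overlap; withdrawal 2 lies below every filled withdrawal point in the 5 genes that rose and above every other library in Scd1.

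Among the 6 genes of sterol sensing, transcription and transport, 2 rose in the 8 libraries and 4 did not pass. The share of all genes tested called higher in that fit was 5.38%. The median log2 fold change of the 6 was 0.15 in 8 and 0.27 in 10 libraries. Insig1 (ENSMUSG00000045294) was at 101, 84.6 and 92.3 CPM in controls 1, 3 and 4, and at 119.8, 131, 112, 120.3 and 110.1 CPM in withdrawal 1, 3, 4, 5 and 6. Every withdrawal library was above every control, with means of 92.5 ± 8.05 CPM (SD, n = 3) and 119 ± 8.35 CPM (SD, n = 5) and a log2 fold change of 0.36 (SE 0.0780, edgeR adjusted p = 0.0184). Insig1 passed in 6 of the 8 fits that left out 1 library, with adjusted p of 0.0135 to 0.0720, and was not called without control 3 or without control 4. Including control 2 (50.7 CPM) and withdrawal 2 (85.6 CPM), its log2 fold change was 0.46 (edgeR adjusted p = 0.298).

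Stard4 (ENSMUSG00000024378) had the largest fold change of the 37 in both fits. It was at 41.2, 29.2 and 38.4 CPM in controls 1, 3 and 4 and at 49.7, 66.1, 50.3, 53.9 and 46.2 CPM in withdrawal 1, 3, 4, 5 and 6, with no overlap. It rose from 36.2 ± 6.26 CPM (SD, n = 3) to 53.2 ± 7.70 CPM (SD, n = 5), a log2 fold change of 0.56 (SE 0.137, edgeR adjusted p = 0.0296). Leaving out control 3, control 4 or withdrawal 5 ended the call, with edgeR adjusted p of 0.0202 to 0.109 over the 8 fits that left out 1 library. Control 2 had 16.2 CPM and withdrawal 2 26.2 CPM, below the other 8 libraries, and the 10-library log2 fold change was 0.64 (SE 0.289, edgeR adjusted p = 0.335).

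The transcription factors themselves did not pass. Srebf1 was at 76.8, 41.5, 76.7 and 92.4 CPM in controls 1 to 4, and the lowest, median and highest of the withdrawal libraries were 87.9, 98.1 and 109 CPM. Only control 4 overlapped with withdrawal, and the log2 fold changes were 0.45 in 10 libraries and 0.23 in 8 (edgeR adjusted p = 0.310 and 0.117). Srebf2 was nearly level in the 8 libraries, with 185, 182 and 179 CPM in controls 1, 3 and 4 and 181 to 192 CPM in withdrawal, a log2 fold change of 0.04 (SE 0.0464, edgeR adjusted p = 0.575). Control 2 had the highest Srebf2 of the 10 at 241 CPM and withdrawal 2 the lowest at 161 CPM, and the 10-library log2 fold change was -0.10 (edgeR adjusted p = 0.626). Scap and Insig2 had log2 fold changes of 0.07 and 0.03 in the 8 libraries.

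Fatty acid synthesis genes moved in no common direction: 4 of 7 had a fold change above 0 in the 8 libraries and 3 below. The median was 0.0023 (-0.03 in 10 libraries), and 1 passed, downward. In the 8 libraries 48.1% of all genes tested had a fold change below 0, and 6.77% were called lower. Scd1 (ENSMUSG00000037071), which puts the first double bond into palmitate and stearate, was at 399.8, 346 and 408 CPM in controls 1, 3 and 4. It was at 327, 313, 337, 297 and 301 CPM in withdrawal 1, 3, 4, 5 and 6, each below every control. It fell from 385 ± 33.8 CPM (SD, n = 3) to 315 ± 17.2 CPM (SD, n = 5), a log2 fold change of -0.29 (SE 0.0685, edgeR adjusted p = 0.0254). The call did not hold without control 1, control 4, withdrawal 3 or withdrawal 5 (edgeR adjusted p of 0.0140 to 0.0881 over the 8 fits that left out 1 library). Control 2 had the lowest Scd1 of the 10, 219 CPM, and withdrawal 2 the highest, 422 CPM, so that in 10 libraries the log2 fold change was -0.04 (SE 0.172, edgeR adjusted p = 0.918).

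Scd2, the brain desaturase, was at 2254, 1785, 1990.4 and 2073 CPM in controls 1 to 4, and withdrawal had a lowest value of 1887, a median of 1942 and a highest value of 2398 CPM. Its log2 fold change in the 8 libraries was -0.11 (SE 0.0631, edgeR adjusted p = 0.280), and 4 of 5 withdrawal libraries lay below the controls. Scd1 and Scd2 are close paralogs, so reads could have been divided between them in counting. Fasn, the synthase that builds palmitate, was at 272, 373, 263 and 276 CPM in controls 1 to 4, and withdrawal had a lowest value of 260.3, a median of 269 and a highest value of 282 CPM. Its means in the 8 libraries were close, at 270.5 ± 7.11 CPM (SD, n = 3) and 271 ± 9.29 CPM (SD, n = 5), and control 2 was the highest of the 10. Acaca, which makes malonyl-CoA, was at 89.4, 90.9 and 90.7 CPM in controls 1, 3 and 4 and at 96.3 to 104 CPM in the 5 withdrawal libraries. The groups were separate, with a log2 fold change of 0.15 (SE 0.0512, edgeR adjusted p = 0.0836). Acly was at 296, 299.7 and 336 CPM in these controls and at 312 to 368 CPM in withdrawal, a log2 fold change of 0.11 (edgeR adjusted p = 0.316). Elovl5, an elongase of polyunsaturated fatty acids, was at 112, 109 and 97.0 CPM in the controls and at 87.0 to 97.5 CPM in withdrawal, a log2 fold change of -0.21 (edgeR adjusted p = 0.0765). Elovl6, which lengthens saturated chains, had 0.04. DESeq2 called Elovl5 (adjusted p = 0.0446) in addition to the 6.

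None of the 6 genes of efflux, turnover and liver X receptor signalling passed in either fit, and their median log2 fold change was 0.015 in 8 and -0.06 in 10 libraries. The share of all genes tested that was called was 12.1% in 8 and 0.166% in 10 libraries. Abca1, the pump that loads cholesterol onto lipoproteins, was at 74.8, 57.4, 65.4 and 75.7 CPM in controls 1 to 4, and withdrawal libraries had 71.2 CPM at the lowest, 79.9 at the median and 114 at the highest. The highest was withdrawal 2, and the log2 fold changes were 0.32 in 10 libraries and 0.15 in 8 (edgeR adjusted p = 0.322 and 0.284). Abcg1, another efflux pump, was at 84.2, 87.1, 93.3 and 85.4 CPM in controls 1 to 4 and at 74.5 to 90.9 CPM (median 85.3) in withdrawal, with log2 fold changes of -0.06 and -0.07. The groups of Abcg1 overlapped over most of their range. Nr1h2 had 33.6 to 44.4 CPM in controls and up to 51.1 CPM (median 42.3) in withdrawal, with overlapping groups and log2 fold changes of 0.12 and 0.10. Nr1h3 was at 5.25, 4.11, 7.73 and 6.21 CPM in controls and at 3.45 to 5.28 CPM (median 4.70) in withdrawal, with the most negative fold change of the 37 in the 8 libraries (-0.50, SE 0.179, edgeR adjusted p = 0.0938). Cyp46a1, the neuronal enzyme that hydroxylates cholesterol for export from the brain, was at 141 CPM in control 2 and at 55.6 to 93.2 CPM in the other 9 libraries; its log2 fold change was 0.31 in 8 libraries (edgeR adjusted p = 0.225) and -0.07 in 10. Lpcat3, a phospholipid acyltransferase induced by liver X receptors, had -0.12 in the 8 libraries.

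**Figure D4:**
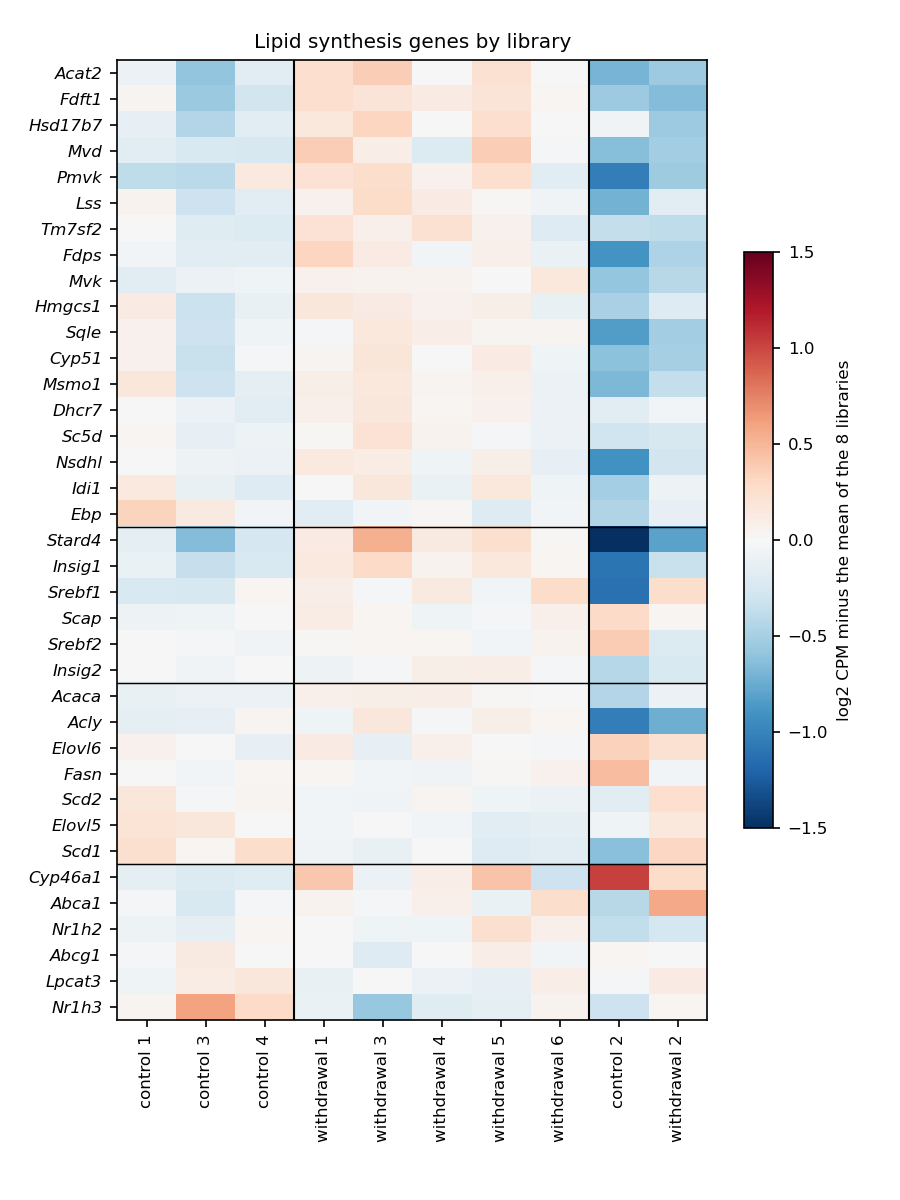
Log2 CPM of each of the 37 genes in each library minus the gene's mean over the 8 libraries; rows are grouped by role and ordered by fold change in the 8 libraries, columns show controls, withdrawal and, at the right, control 2 and withdrawal 2. Most sterol enzymes are low (blue) in control 3, control 2 and withdrawal 2 and high (red) in withdrawal 3.

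Libraries of 1 group differed in the sterol enzymes. Of the 18 sterol enzymes, 15 had their lowest value of the 10 libraries in control 2 and the other 3 in withdrawal 2. Within the 8 libraries, 11 of the 18 were lowest in control 3 and 9 were highest in withdrawal 3. The share of all genes tested with such extremes in these libraries was not counted. Whether the extremes are particular to the sterol enzymes is therefore not known. Control 3 also had the highest hippocampal and cortical marker sum of the 8, 828 CPM, while the other 7 had 250 to 459 CPM. The part of these markers in the low enzyme values of control 3 was not tested. Leaving out control 3 took the median of the 37 members in the 8-library fit from 0.13 to 0.055, and 17 of the 18 enzymes still had a fold change above 0.

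Some cell type markers moved with the groups. Over all genes tested, 5.38% were called higher and 6.77% lower in the 8 libraries. In the 8 libraries 6 of 8 oligodendrocyte markers fell, and the summed level of the list was 11750 to 13096 CPM in controls and 6183 to 10675 CPM with withdrawal; Mbp fell by 0.54 on the log2 scale (edgeR adjusted p = 0.0472). Of 4 oligodendrocyte precursor markers 2 fell (sum 322 to 331 against 226 to 278 CPM), of 7 astrocyte markers 2 fell (sum 3471 to 3954 against 2754 to 3236 CPM), and of 4 meningeal fibroblast markers 2 fell (sum 159 to 201 against 34.5 to 128 CPM). The hippocampal and cortical list had 2 of 4 lower, with sums of 405 to 828 CPM in controls and 250 to 358 CPM in withdrawal. None of the 8 medial habenula markers passed (sum 615 to 860.5 against 559 to 869 CPM), nor any of the 4 choroid plexus markers. The choroid plexus sum was 7231 to 10160 CPM in controls and 60.5 to 9549 CPM in withdrawal. Log2 fold changes of these 4 markers lay between -1.29 and -0.87. GABAergic, microglial, endothelial and blood lists had 0 called, at 175 to 326, 122 to 128, 129 to 138 and 44.7 to 76.8 CPM in controls and 81.9 to 239, 96.7 to 128, 110.2 to 147 and 49.4 to 174 CPM in withdrawal. In 10 libraries the only marker called was Gpr17, of oligodendrocyte precursors (log2 fold change -0.74, edgeR adjusted p = 0.0267). In that fit 0.138% of all genes tested were called lower. The part of these markers in the fall of Scd1 and in the rise of the sterol genes was not tested.

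**Figure D5:**
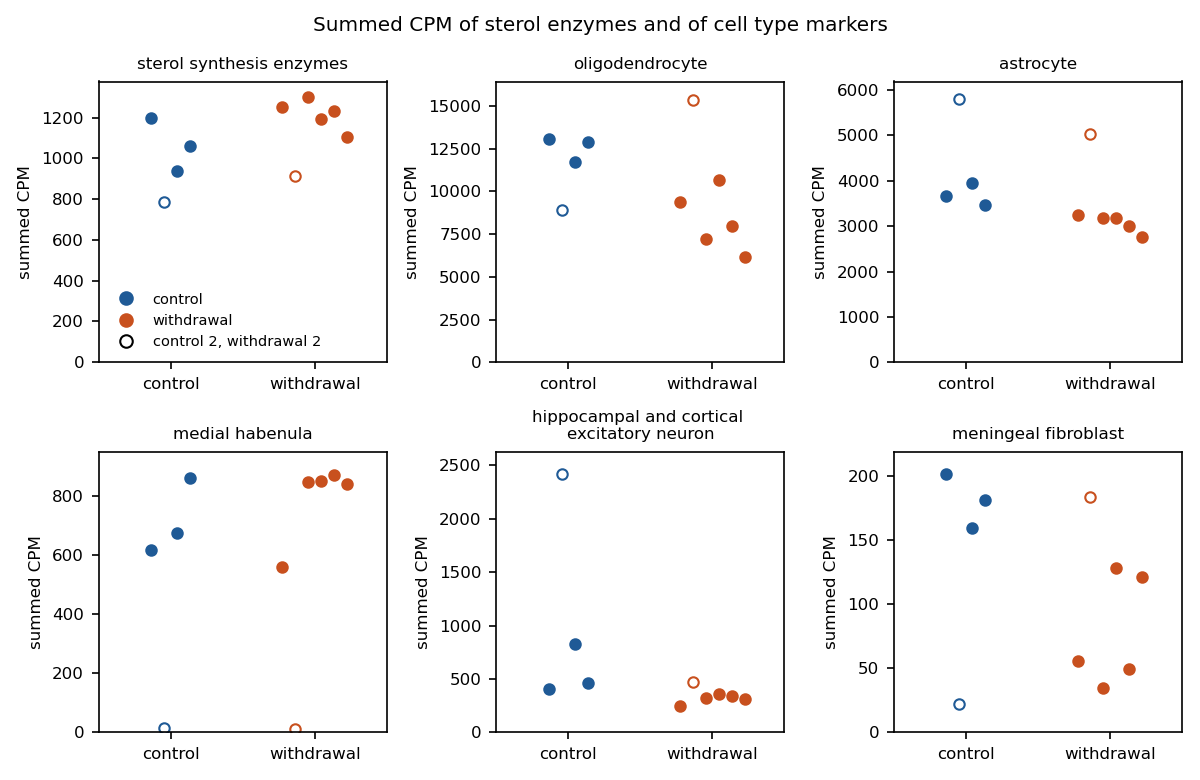
Summed CPM per library of the 18 sterol synthesis enzymes and of 5 lists of cell type markers, in control (blue) and withdrawal (orange) libraries; open points are control 2 and withdrawal 2. Among the filled points, oligodendrocyte, astrocyte, hippocampal and meningeal sums are lower in every withdrawal library than in any control, and the sterol enzyme sums overlap.

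Other genes of the same pathways were read from 5 lists, and in 10 libraries none of their 48 genes passed, where 0.166% of all genes tested did. Median log2 fold changes in the 8 libraries were 0.050 for the isoprenoid branch, 0.0087 for elongation and desaturation, -0.12 for acetyl-CoA supply, -0.09 for SREBP processing and -0.16 for uptake and transport. In the 8 libraries, the supply of acetyl-CoA and lipogenic regulators had 2 of 8 higher and 1 lower. Of all genes tested, 5.38% were called higher in this fit and 6.77% lower. Mid1ip1, an activator of acetyl-CoA carboxylase, rose from 87.9 ± 4.45 CPM (SD, n = 3) to 116 ± 4.65 CPM (SD, n = 5), a log2 fold change of 0.40 (SE 0.0559, edgeR adjusted p = 0.00353), with every withdrawal library above every control. This separation also held over all 10 libraries, at 60.9 to 91.3 CPM in controls and 109.8 to 123 CPM in withdrawal (edgeR adjusted p = 0.155). Of all genes tested, 1.7% were separated upward over the 10 libraries and 1.57% downward. The acetyl-CoA supply, SREBP processing and uptake lists each held 1 gene separated downward over the 10 libraries. Aacs, which activates acetoacetate for sterol synthesis, rose by a log2 fold change of 0.45 (edgeR adjusted p = 0.0440). The acetyl-CoA synthetase Acss2, with -0.17 (edgeR adjusted p = 0.0931), did not pass. Thrsp, a lipogenic partner of Mid1ip1 named after its values were seen, fell from 21.5 ± 3.09 to 8.34 ± 1.85 CPM (SD, n = 3 and 5), a log2 fold change of -1.37 (edgeR adjusted p = 0.00182), whereas withdrawal 2 had 40.3 CPM.

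Fatty acid elongation and desaturation had 0 of 11 higher and 3 lower in the 8 libraries, against 5.38% and 6.77% of all genes tested. These were the very-long-chain elongase Elovl1, with a log2 fold change of -0.47 (edgeR adjusted p = 0.0101), the dehydratase Hacd2, with -0.35 (edgeR adjusted p = 0.0495), and the desaturase Fads1, with -0.24 (edgeR adjusted p = 0.0333; named after its values were seen). Tecr, the last reductase of elongation, had 0.11. SREBP processing and sterol-regulated degradation had 2 of 9 lower and 0 higher: the site-2 protease gene Mbtps2, with -0.23 (edgeR adjusted p = 0.0401), and the ubiquitin ligase Syvn1, with -0.22 (edgeR adjusted p = 0.0388). Cholesterol uptake, transport and storage had 1 of 12 higher and 4 lower. Osbp, an oxysterol-binding protein, fell from 96.6 ± 0.940 to 84.4 ± 3.84 CPM (SD, n = 3 and 5; log2 fold change -0.20, edgeR adjusted p = 0.0374). The others, named after their values were seen, were Abca2 (-0.36), Stard3 (-0.31), Npc2 (-0.28) and, upward, Abcg4 (0.28). The lipoprotein receptors Lrp8 and Lrp1 had 0.28 and -0.13 and did not pass. None of the 8 genes of the isoprenoid branch passed; Pdss1 had 0.33, Fnta 0.15 and Coq2 0.02.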

How the data were processed

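RNA-seq read counts per gene were deposited by the authors as whole numbers with 1 column per library, and the same table held FPKM columns, named so per the file headers. HTSeq 0.6.1, HISAT2 2.2.1, cutadapt 1.9.1 and build mm39 are named in the submitters' processing notes, with no roles. The annotation release and strand setting are not given in the sources used here. Whether reads of overlapping genes on the 2 strands were told apart is therefore not known. Symbols came from GENCODE M21 (52073 of 56691 identifiers named).

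Genes with a mean of at least 0.5 FPKM over 10 libraries (17426) were tested with edgeR 4.0.16 (quasi-likelihood, TMM factors, 2-sided, Benjamini-Hochberg) in R 4.3.3, in 10 and in 8 libraries; the standard error was the log2 fold change divided by the root of the F statistic. CPM values used the 10-library TMM factors. Alternatives were RLE factors, DESeq2 1.42.0, limma 3.58.1 on log2(FPKM + 1) and log2(FPKM + 0.1), other filters, a replicate block and leaving out each library. No molecular identifiers are mentioned, so PCR copies may have been counted as reads.

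The members, lists and tests were chosen with earlier results of these data known. Values by library (or, for some groups, the range and median) were given for members past the threshold in either fit, up to 4 of each role with the smallest 10-library p, and 10 members named at the outset. From each list of other pathway genes the 3 with the smallest 10-library p were named; 1 of these is not reported here.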

Additional observations from a re-analysis of the deposited data

Results flagged for a closer look

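Of 74 groups of values (37 genes in 4 controls and in 6 withdrawal libraries), 13 had a highest or lowest library whose gap to the next, as a share of the group's range, passed Dixon's 95% critical value (0.829 for 4 libraries, 0.625 for 6); chance flags about 1 in 20 groups. All 13 were control 2 (6) or withdrawal 2 (7), the libraries near-empty of medial habenula markers. The genes were read in the same libraries, so the groups are not independent. How many of all genes tested this rule would flag was not counted. Whether the flags are particular to these 37 genes is therefore not known. Control 2 was low in Nsdhl (ratio 0.883, 14.7 CPM), Insig2 (0.851, 49.1 CPM) and Acaca (0.925, 70.9 CPM), and high in Srebf2 (0.910, 241 CPM), Fasn (0.875, 373 CPM) and Cyp46a1 (0.963, 141 CPM). Withdrawal 2 was low in Mvk (0.673, 12.2 CPM), Fdft1 (0.684, 59.7 CPM), Sqle (0.7001, 66.8 CPM), Srebf2 (0.628, 161 CPM) and Acly (0.677, 195 CPM), and high in Scd1 (0.676, 422 CPM) and Scd2 (0.639, 2398 CPM). Srebf2 was flagged in both groups, high in control 2 and low in withdrawal 2.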

How the results depend on the processing

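In the 10-library fit the number of members called was 0 under every alternative run. In the 8-library fit it was 6 with RLE factors, a minimum of 1 FPKM or no filter, 7 with DESeq2 and 4 with limma at either pseudocount, which did not call Fdft1 and Acat2. With a replicate block it was 0. In that fit withdrawal 5 and 6, whose numbers no control shares, carry no information on the contrast. Leaving out 1 library gave 1 to 7 members called. The replicate numbers were not taken as pairs: libraries with the same number had correlations of deviations of 0.024, 0.284, -0.123 and 0.223. Over all genes, the 10-library fit called 29 and the alternatives 410 (DESeq2), 15 and 7 (limma with pseudocounts of 1 and 0.1) and 0 (replicate block), with 4 to 814 when 1 library was left out; the 814 came without withdrawal 2. The 8-library fit called 2116, against 2140 with RLE factors, 3007 with DESeq2, and 1915 and 1858 with limma (pseudocounts of 1 and 0.1). It called 2088 of 14928 genes with a minimum of 1 FPKM and 2254 of 34179 with no filter. With a replicate block it called 1093, and 907 to 3007 when 1 library was left out. The cause of these shifts was not tested. Of the 21 members covered by the naming rule, the sign changed for Scd1, Srebf2, Abcg1, Scd2 and Fasn, whose main values lay between -0.10 and 0.0023. In 10 libraries Scd1 (-0.045) was 0.055 and 0.056 with limma, 0.053 with the block, and -0.21 (without control 2) to 0.037 (without control 4) when 1 library was left out, with 0.026 without control 1. Srebf2 (-0.10) ranged from -0.17 to 0.011, above 0 only without control 2, and Abcg1 (-0.06) was 0.011 and 0.012 with limma. Scd2 (0.00097) was -0.011 with RLE factors and with DESeq2, -0.0046 and -0.0073 with the other filters and -0.063 to 0.041 when 1 library was left out. In 8 libraries Fasn (0.0023) was -0.00098 with RLE factors, -0.0011 with DESeq2, -0.00089 and -0.0068 with the other filters, -0.017 with the block and -0.025 to 0.019 when 1 library was left out. With 3 controls, 1 library can decide a call.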
